A study of Mus musculus with 6 samples.

Results

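The genes described here are the transcription factor gene *Nfe2l2* (NRF2), its inhibitor gene *Keap1*, and 8 antioxidant genes known as NRF2 targets: *Nqo1*, *Gclc*, *Gclm*, *Hmox1*, *Txnrd1*, *Srxn1*, *Slc7a11* and *Gsr*. They were taken as a fixed list of mouse symbols and matched to Ensembl gene identifiers, which gave 10 genes of the 55487 listed in the count tables. All 10 passed the filter on low counts and were among the 12741 genes tested. Expression was measured by RNA sequencing in mouse hepatocytes, the parenchymal cells of the liver, with 3 libraries per genotype. The 2 groups were AEG-1-C75S homozygotes, in which the cysteine at the palmitoylated position of AEG-1 (encoded by *Mtdh*) is replaced by a serine, and wild type (WT) mice from the same heterozygote matings. Mice were 6 to 8 weeks old, RNA was taken 48 h after the cells were isolated, and every sample in both groups carries Control as its treatment. Strain and sex are not given in the sources used here. Nothing in the labels ties the libraries to separate mice, so p-values measure the spread between these libraries, which may be technical.

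NRF2 is a basic leucine zipper transcription factor that KEAP1, a cysteine-rich adaptor of a CUL3 ubiquitin ligase, keeps short-lived by marking it for degradation. Electrophiles and oxidants modify KEAP1 cysteines, NRF2 then accumulates, pairs with a small MAF protein and binds antioxidant response elements near genes of glutathione synthesis, thioredoxin recycling, quinone reduction and haem breakdown. Because this control acts on the protein, mRNA levels of *Nfe2l2* and *Keap1* do not measure NRF2 activity. In liver the pathway is known for its part in the response to drugs and to oxidative stress.

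The letters that NRF2 with a small MAF protein is known to bind are shown first, because they are what the target genes are known to share. RefSeq promoter windows (GRCm38.p6, 250 bases before to 50 after a start site) were found for 7 of the 10 genes, 9 windows in all because *Txnrd1* has 3. *Gclc*, *Hmox1* and *Gsr* were not matched. The core TGACNNNGC was searched on both strands, and TGANTCA, the letters of an AP-1 type site, was searched likewise. The core was present in the windows of 4 genes, *Nfe2l2*, *Gclm*, *Txnrd1* and *Srxn1*, and 12.4% of all 32851 windows of that length held it. TGANTCA was present at 2 places in the *Srxn1* window and in no other of the 9 windows, against 7.81% of all windows, and matches to both that overlap each other occurred in 0.454% of all windows and in none of these 9. In *Srxn1* the core lay 28 bases after the start site and is not shown, and the capitals below mark TGANTCA. With the letters after it, the later of these places reads TGAGTCAGC. That differs from the core only in having G in place of C after TGA, and the search did not count it as the core. In the other 3 stretches capitals mark the core, which reads on the opposite strand in *Gclm* and *Txnrd1*. The stretches lie before the start site and run 5′ to 3′ on the strand of the gene, at chr3:122245393-122245461 (plus) for *Gclm*, chr2:75704865-75704913 (minus) for *Nfe2l2*, chr10:82859084-82859152 (plus) for *Txnrd1* and chr2:152105392-152105515 (plus) for *Srxn1*.
Gclm: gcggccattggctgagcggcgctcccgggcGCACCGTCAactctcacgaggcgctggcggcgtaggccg
Nfe2l2: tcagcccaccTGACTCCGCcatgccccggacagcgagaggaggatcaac
Txnrd1: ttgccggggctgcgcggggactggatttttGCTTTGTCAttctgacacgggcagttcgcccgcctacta
Srxn1: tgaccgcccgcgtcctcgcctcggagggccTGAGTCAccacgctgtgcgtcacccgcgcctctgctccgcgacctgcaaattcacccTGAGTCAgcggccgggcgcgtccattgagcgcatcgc
These are matches of letters within a window, and binding was not measured in this study.

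Libraries held between 16944723 and 21044292 counts on genes, and 3 counts corresponded to 0.143 to 0.177 CPM (counts per 1000000 gene counts, scaled between libraries by TMM). C75S replicate 1 was the shallowest library and had the largest share of unmapped reads, 5.81% against 4.37% to 4.82% in the others. Mitochondrial transcripts took 6.41% to 6.85% of gene counts. *Mtdh* itself was at 197 ± 5.18 CPM in WT and 200 ± 10.5 CPM in C75S (SD, n = 3 each), and a gene count does not read the mutated codon. Of the listed hepatocyte markers all 7 passed the filter, with *Alb* at 55643 to 70067 CPM.

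Of the 10 genes, only *Hmox1* differed between genotypes at an adjusted p-value under 0.05 (edgeR's quasi-likelihood test, Benjamini-Hochberg over all 12741 genes), and it was lower in C75S. Among all tested genes 3.11% passed this threshold in either direction and 1.37% as lower in C75S, which is the background for this single call. The estimate was lower in C75S for 6 genes and higher for 4, and 5 and 5 under library-size scaling, where *Txnrd1* changed sign. Their median log2 fold change was -0.04, beside -0.003 over all genes. In 5 of the 10 genes the libraries of the genotypes did not overlap, against 18.0% of all genes tested. The same number had an unadjusted p-value under 0.05, against 13.4%. The 5 without overlap went both ways, with *Hmox1*, *Nfe2l2* and *Gclc* lower in C75S (8.96% of all genes) and *Slc7a11* and *Gsr* higher (9.02%). The members were proposed with earlier results of these data known, so these shares are descriptions.

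**Figure D1:**
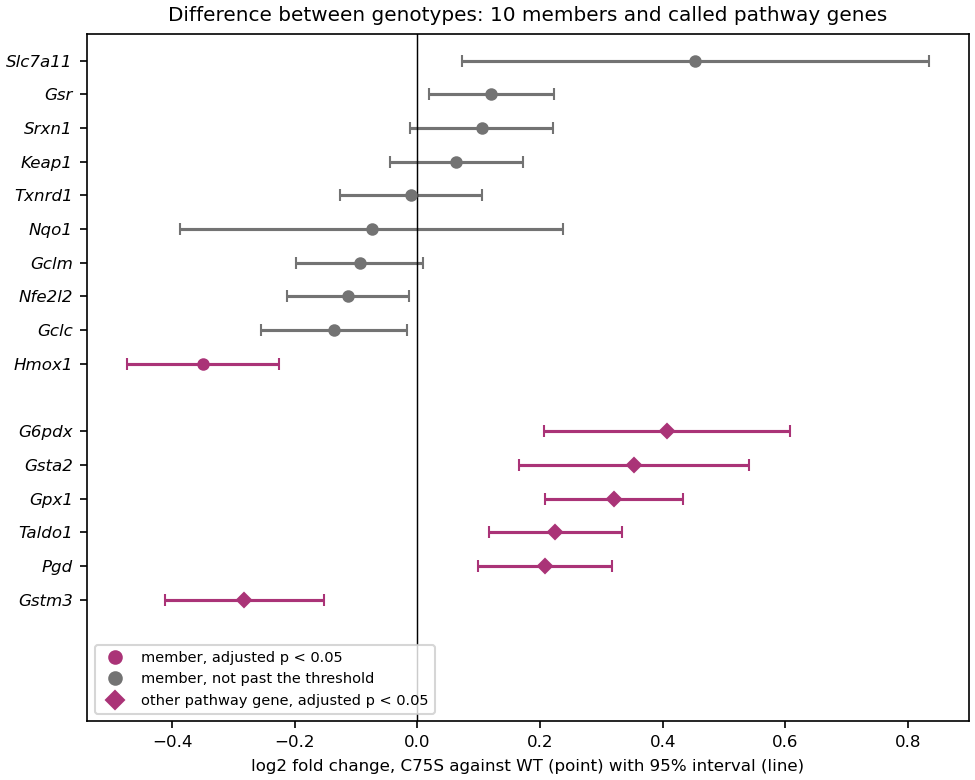
Log2 fold change of C75S against WT (point) with its 95% interval (line) for the 10 genes, circles, and for the 6 other pathway genes that passed the threshold, diamonds. *Hmox1* at -0.35 is the one member past an adjusted p-value of 0.05, and the widest intervals are those of *Slc7a11* and *Nqo1*.

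*Hmox1* encodes haem oxygenase 1, the inducible enzyme that opens haem to biliverdin, iron and carbon monoxide (ENSMUSG00000005413, chromosome 8, 75093621 to 75100589 in GRCm38, plus strand). It was at 274, 264 and 270 CPM in C75S replicates 1 to 3 and at 327, 385 and 317 CPM in WT replicates 1 to 3. Every C75S library lay below every WT library, and the WT libraries were the more scattered, with WT replicate 2 the highest. Its level fell by 21.5%, with means of 343 ± 36.5 CPM for WT and 269 ± 4.82 CPM for C75S (SD, n = 3 each) and a difference of -0.35 on the log2 scale (SE 0.06, 95% interval -0.47 to -0.23, edgeR adjusted p = 0.000997). The call was kept in all 14 alternative fits, with the highest adjusted p-value, 0.0169, and the smallest change, -0.26, when WT replicate 2 was left out. These libraries are bulk samples, in which fewer cells of a type and less RNA per cell cannot be told apart.

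Haem oxygenase 1 is also known from Kupffer cells, the macrophages of the liver, so their markers are given beside this result. Of 8 Kupffer cell and macrophage markers, 2 passed the filter, *Cd68* and *Csf1r*. The summed level of the 8 was 96.2 to 140 CPM in C75S and 103 to 135 CPM in WT, nearly all of it from *Cd68*, and the ranges overlapped. The Kupffer markers *Adgre1* and *Clec4f* were at 0 in all C75S libraries and reached at most 0.0485 and 0.190 CPM in a WT library. *Marco* went the other way, at 0.345, 0.285 and 0.321 CPM in C75S and 0.0475, 0 and 0.0970 CPM in WT without overlap, and *Cd5l* was seen in 1 C75S library, at 0.0474 CPM. *C1qa* was lower on average in C75S, at 0.287, 0.190 and 0.107 CPM against 0.712, 0.877 and 0.243 CPM in WT, with overlap. *Vsig4* was at 0.115, 0.0949 and 0 CPM in C75S and 0.237, 0.146 and 0 CPM in WT, also with overlap. Of the markers on this list, all except *Cd68* and *Csf1r* failed the filter on low counts. Summed markers of endothelial cells overlapped too, at 31.0 to 41.5 CPM in C75S and 29.6 to 40.0 CPM in WT, most of it *Stab2*. Of that list, 5 markers were tested and none passed the threshold; the median of their log2 fold changes was 0.69. *Pecam1* (0.70), *Kdr* (0.69) and *Lyve1* (0.85) had all 3 C75S values above all 3 WT values, which held for 9.02% of all tested genes. Summed stellate cell markers overlapped, at 52.6 to 69.0 CPM in C75S and 67.8 to 90.4 CPM in WT.

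Summed cholangiocyte markers were at 144 to 197 CPM in C75S and 122 to 133 CPM in WT without overlap, most of it *Spp1*, with *Cftr* at 0 in all 6 libraries and 4 of the 6 markers passing the filter. *Krt19*, a keratin of bile duct cells, was the one marker of these cell types past the threshold, at 5.47 ± 0.26 CPM in WT and 9.52 ± 1.22 CPM in C75S (SD, n = 3 each; 0.80 on the log2 scale, edgeR adjusted p = 0.0015), without overlap. Among all tested genes 1.74% passed the threshold as higher in C75S, and 9.02% were higher without overlap. Of the 4 cholangiocyte markers tested, 3 had a higher estimate in C75S and 1 a lower one. Their median was 0.49 on the log2 scale. *Spp1* (0.53, edgeR adjusted p = 0.235) was also higher without overlap and did not pass. The libraries overlapped for *Krt7* (0.44) and *Sox9* (-0.06). The part of the cell types named above in the results for the NRF2 genes was not tested.

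**Figure D2:**
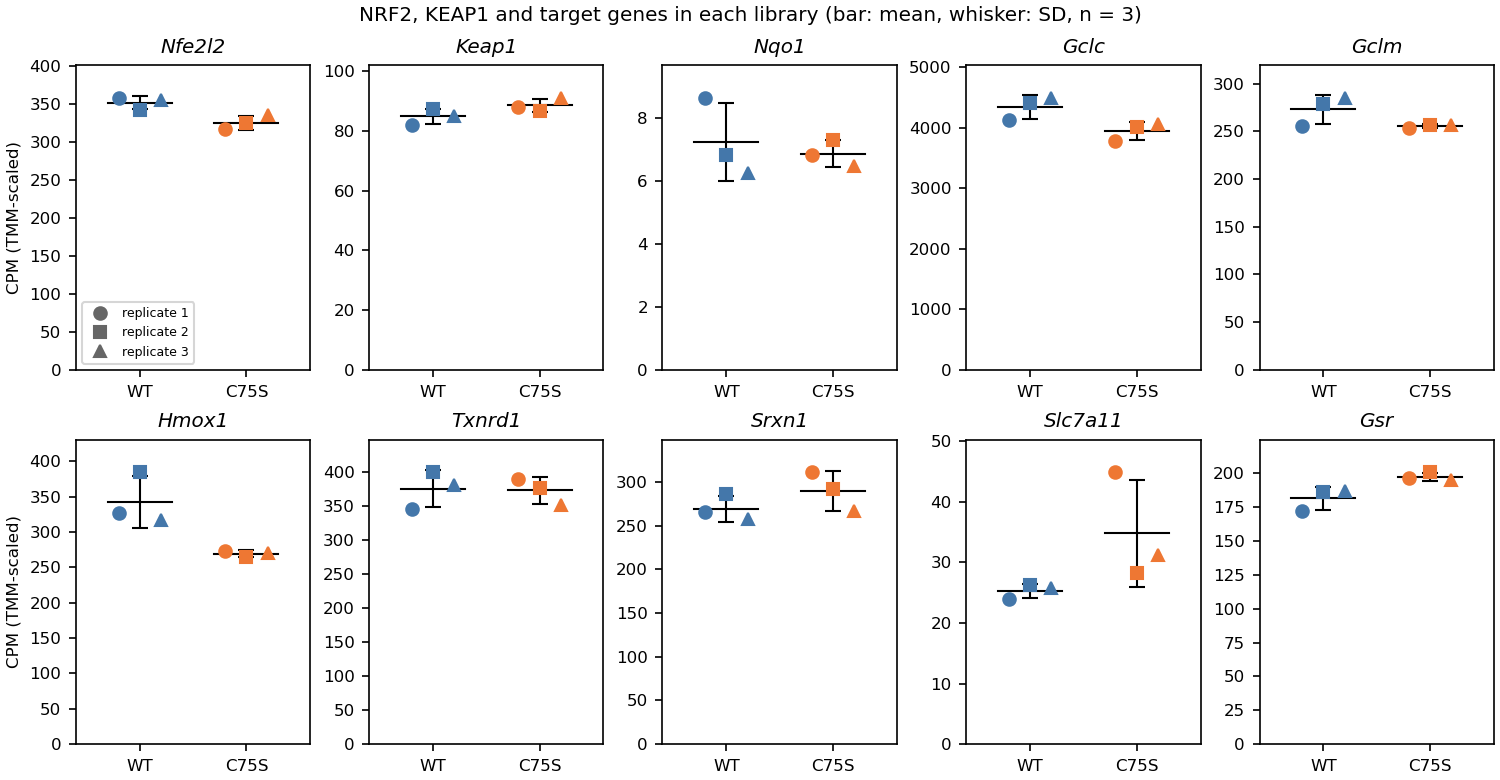
CPM of each of the 10 genes in the 6 libraries, WT in blue and C75S in orange, with a symbol for each replicate number, a bar at the mean and a whisker for the SD (n = 3). *Hmox1* libraries of C75S sit between 264 and 274 CPM, all below the WT libraries, and C75S replicate 1 stands above the other libraries in *Slc7a11*.

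*Nfe2l2* (ENSMUSG00000015839, chromosome 2, 75675513 to 75704641, minus strand) encodes the transcription factor itself. Its level was 316, 324 and 335 CPM in the C75S libraries and 358, 342 and 355 CPM in the WT libraries. All C75S values lay below all WT values, but the distance from the highest C75S to the lowest WT library was small. The means were 325 ± 9.31 and 352 ± 8.74 CPM (SD, n = 3 each), and the difference of -0.11 on the log2 scale (SE 0.05, 95% interval -0.21 to -0.01) did not pass the threshold (edgeR adjusted p = 0.277). *Keap1* (ENSMUSG00000003308, chromosome 9, 21229730 to 21239361, minus strand), the inhibitor, was at 88.1, 86.9 and 91.1 CPM in C75S and at 82.1, 87.3 and 85.2 CPM in WT. The genotypes overlapped, with a log2 fold change of 0.06 (95% interval -0.05 to 0.17, edgeR adjusted p = 0.669). Per kilobase of exon, *Nfe2l2* mRNA was 4.44 to 4.62 times as abundant as *Keap1* mRNA in C75S libraries and 4.84 to 5.39 times in WT libraries.

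Glutathione, the main small thiol of hepatocytes, is made in a first step by glutamate-cysteine ligase, a dimer of the catalytic subunit *Gclc* and the modifier subunit *Gclm*. *Gclc* (ENSMUSG00000032350, chromosome 9, 77754535 to 77794485, plus strand) was at 3782, 4008 and 4062 CPM in C75S and at 4120, 4411 and 4489 CPM in WT. The groups did not overlap, with a log2 fold change of -0.14 (SE 0.06, 95% interval -0.25 to -0.02), and the difference did not pass the threshold (edgeR adjusted p = 0.275). *Gclm* (ENSMUSG00000028124, chromosome 3, 122245557 to 122270732, plus strand) was at 254, 257 and 257 CPM in C75S and at 256, 278 and 285 CPM in WT, a log2 fold change of -0.09 (95% interval -0.20 to 0.01, edgeR adjusted p = 0.443). Here WT replicate 1 lay among the C75S libraries. The exons of *Gclm* share 244 bases with the pseudogene *Gm6061* on the same strand, where reads could be counted to neither. Per kilobase of exon, *Gclc* mRNA exceeded *Gclm* mRNA 24.9 to 26.4 times in C75S and 26.3 to 26.9 times in WT. The mRNAs thus kept nearly the same proportion, and the proteins were not measured.

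Cystine for this synthesis enters through system xc-, whose transport subunit is encoded by *Slc7a11* (ENSMUSG00000027737, chromosome 3, 49892526 to 50443614, minus strand). It had the largest estimated difference of the 10 genes and also the most scattered C75S libraries, at 44.9, 28.3 and 31.2 CPM, while WT libraries were at 24.0, 26.2 and 25.8 CPM. Although every C75S library lay above every WT library, most of the difference came from C75S replicate 1. That library was also the shallowest, at 16944723 gene counts, and the part of its depth in this value was not tested. The log2 fold change was 0.45 (SE 0.16, 95% interval 0.07 to 0.83) and the adjusted p-value in edgeR was 0.265. Without C75S replicate 1 the estimate was 0.23 (edgeR adjusted p = 0.277), and without C75S replicate 2 it was 0.59 and passed the threshold (edgeR adjusted p = 0.00711). It also passed when all genes with at least 1 count were tested (edgeR adjusted p = 1.82e-05), and it did not pass in the other 12 alternatives, which reached up to 0.501. *Slc3a2*, the chain that pairs with it at the membrane, was at 319 ± 17.8 CPM in WT and 333 ± 7.39 CPM in C75S (SD, n = 3 each), 0.06 higher on the log2 scale (edgeR adjusted p = 0.671).

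**Figure D3:**
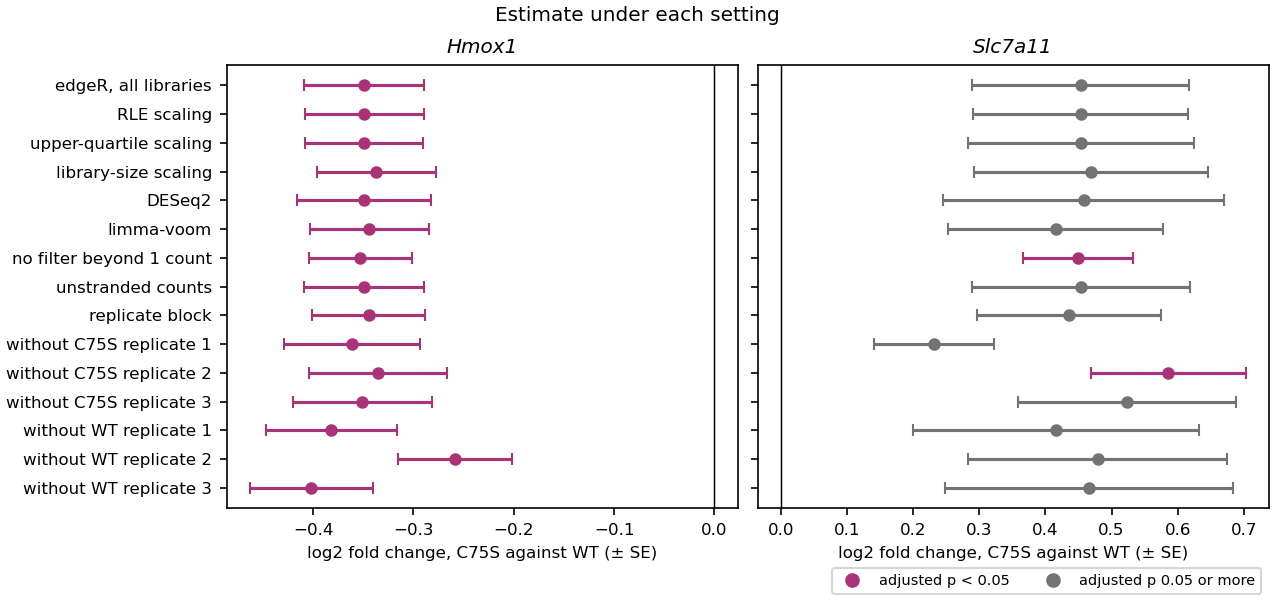
Log2 fold change of C75S against WT with its standard error for *Hmox1* and *Slc7a11* under each setting, coloured where the adjusted p-value was under 0.05. *Hmox1* lay between -0.40 and -0.26 and passed in every fit shown, whereas *Slc7a11* ranged from 0.23 to 0.59 over the alternatives and passed in 2 of them.

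*Gsr* encodes glutathione reductase, which returns oxidised glutathione to the reduced form at the cost of NADPH (ENSMUSG00000031584, chromosome 8, 33652523 to 33698163, plus strand). It was at 196, 201 and 195 CPM in C75S and at 172, 186 and 187 CPM in WT. All C75S libraries were higher, with WT replicate 1 the lowest of the 6. The log2 fold change was 0.12 (SE 0.05, 95% interval 0.02 to 0.22) and did not pass the threshold in the test over all genes (edgeR adjusted p = 0.249) or in any of the 14 alternatives.

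Of the thioredoxin branch, *Txnrd1* encodes the cytosolic thioredoxin reductase, a selenoprotein (ENSMUSG00000020250, chromosome 10, 82833951 to 82897712, plus strand). Its level was 390, 376 and 352 CPM in C75S and 346, 399 and 381 CPM in WT. The groups lay within each other, at -0.01 on the log2 scale (edgeR adjusted p = 0.968) whose sign turned under library-size scaling (0.0034) and in the fits that left out C75S replicate 3 (0.03) or WT replicate 2 (0.037) or 3 (0.00028). The 95% interval, -0.13 to 0.10, corresponds to 0.92-fold to 1.08-fold. *Srxn1* encodes sulfiredoxin, which repairs overoxidised peroxiredoxins (ENSMUSG00000032802, chromosome 2, 152105516 to 152111376, plus strand), and was at 311, 292 and 266 CPM in C75S and 265, 286 and 257 CPM in WT. C75S replicate 1 was the highest and C75S replicate 3 lay among the WT libraries, and the log2 fold change of 0.10 (95% interval -0.01 to 0.22) did not pass (edgeR adjusted p = 0.448).

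*Nqo1*, the quinone reductase often used as a readout of NRF2, was one of the scarcest of these mRNAs (ENSMUSG00000003849, chromosome 8, 107388225 to 107403206, minus strand). It had 119 to 182 counts per library, which gave 6.83, 7.31 and 6.47 CPM in C75S and 8.64, 6.82 and 6.26 CPM in WT. The groups overlapped, and WT replicate 1 was the highest library. The estimate was -0.07 on the log2 scale (edgeR adjusted p = 0.895), and the 95% interval ran from 0.76-fold to 1.18-fold. Without WT replicate 1 the sign turned, to 0.07 (edgeR adjusted p = 0.883).

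Levels of different genes were compared per kilobase of exon. *Gclc* was the highest at 1101 CPM per kb (1004 to 1192 over the 6 libraries), 32nd from the top among 12735 tested genes with a known length. *Hmox1* followed at 175 CPM per kb (151 to 220), then *Srxn1* at 99.1 (91.2 to 110) and *Nfe2l2* at 89.2 (83.4 to 94.3), whose ranges overlapped and could not be ordered. Below them came *Gsr* at 68.8, *Txnrd1* at 52.8, *Gclm* at 42.0 and *Keap1* at 18.5 CPM per kb, each apart from its neighbours in all 6 libraries. *Nqo1* at 4.54 (4.03 to 5.56) and *Slc7a11* at 2.16 (1.72 to 3.23) were the lowest, and 46.5% and 31.6% of the tested genes lay below them. Exon length here is the union of all annotated exons, so a gene with long alternative exons such as *Slc7a11* is placed too low if these were not used.

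**Figure D4:**
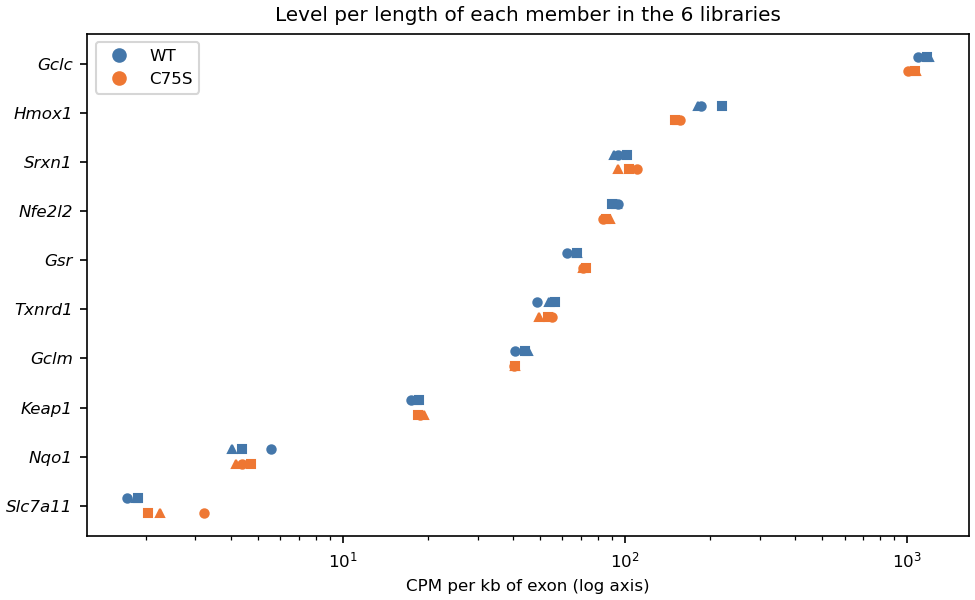
CPM per kilobase of exon, on a log axis, for each of the 10 genes in the 6 libraries (WT blue, C75S orange). *Gclc* stands apart at 1004 to 1192 CPM per kb, and the ranges of *Srxn1* and *Nfe2l2* are the only neighbouring ones that overlap.

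The spread between libraries of one genotype differed among the 10 genes. In C75S the coefficient of variation was 25.5% for *Slc7a11*, 7.75% for *Srxn1* and 6.08% for *Nqo1*, and it was 0.745% for *Gclm*. In WT it was 17.2% for *Nqo1* and 10.6% for *Hmox1*, and 2.49% for *Nfe2l2*. No single library was extreme throughout. C75S replicate 1 was the highest of the 6 for 2 genes and the lowest for 3, and WT replicate 1 was the highest for 2 and the lowest for 4.

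The wider pathway was described with 72 further genes in 7 lists, of which 71 could be tested. Of these 5 were higher and 1 was lower in C75S at an adjusted p-value under 0.05, where 1.74% and 1.37% of all tested genes passed in those directions. The median log2 fold change of the 71 was 0.02. The count of called pathway genes was 2 without C75S replicate 1 or WT replicate 2 and 3 without WT replicate 1 or WT replicate 3. It was 4 without C75S replicate 2 and 6 without C75S replicate 3. Over all genes the count fell as well in these fits, from 396 to between 201 and 355. The cause of the lower counts was not tested.

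Among 7 genes of NADPH supply, 3 rose and none fell past the threshold, against 1.74% and 1.37% of all tested genes. The list's median log2 fold change was 0.15. The 3 were *G6pdx*, *Pgd* and *Taldo1*. *G6pdx*, which encodes glucose-6-phosphate dehydrogenase, the first enzyme of the pentose phosphate pathway, was at 21.9, 18.1 and 20.6 CPM in C75S and 14.7, 15.7 and 15.2 CPM in WT, which is 0.41 higher on the log2 scale (SE 0.10, edgeR adjusted p = 0.018). Every C75S library lay above every WT library, as in 9.02% of all tested genes, and the same held for the other 2 genes. *Pgd*, an oxidative enzyme of that pathway, rose from 323 ± 5.48 to 373 ± 26.7 CPM (log2 fold change 0.21, edgeR adjusted p = 0.0269), and *Taldo1*, transaldolase of the non-oxidative branch, from 98.0 ± 3.73 to 115 ± 4.24 CPM (SD, n = 3 each; 0.22, edgeR adjusted p = 0.0154). *Tkt*, transketolase of the same branch as *Taldo1*, was at 565 ± 17.4 CPM in WT and 575 ± 12.4 CPM in C75S (0.03 on the log2 scale, edgeR adjusted p = 0.891). *Me1*, malic enzyme, was at 121 ± 6.01 CPM in WT and 110 ± 4.31 CPM in C75S (-0.14, edgeR adjusted p = 0.212), the one member of this list with a negative estimate. All C75S libraries of *Me1* lay below all WT libraries, as in 8.96% of all tested genes. Over all libraries *G6pdx* had 2232 counts on the opposite strand and 2095 on its own, and their part in its unstranded estimate was not tested. *G6pdx* lost its call with unstranded counts (0.20 on the log2 scale, edgeR adjusted p = 0.284) and in the fits that left out C75S replicate 1 (0.119) or 3 (0.0642) or WT replicate 1 (0.053), 2 (0.0504) or 3 (0.0629). *Pgd* lost it in the fits that left out C75S replicate 1 (0.135) or 2 (0.12) or WT replicate 2 (0.161) or 3 (0.0794), and *Taldo1* without C75S replicate 1 (0.0901) or WT replicate 1 (0.0541). The longest transcript of *G6pdx* is 93.2% identical to *G6pd2* over 87.9% of its length, and that of *Taldo1* 94.7% identical to the pseudogene *Gm17823* over 67.8%, so reads that fit both copies were not counted.

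Among 12 genes of glutathione synthesis, use and cystine supply, the median was -0.02. In this list 1 gene rose past the threshold and none fell, against 1.74% and 1.37% of all tested genes. The gene was *Gpx1*, which encodes the abundant cytosolic glutathione peroxidase, at 804, 839 and 839 CPM in C75S and 710, 643 and 633 CPM in WT. The libraries did not overlap, the difference was 0.32 on the log2 scale (SE 0.05, edgeR adjusted p = 0.000731), and the call was kept in all 14 alternatives (highest adjusted p = 0.0195). *Oplah*, the 5-oxoprolinase of the glutathione cycle, had the next smallest p-value and was at 123 ± 3.90 CPM in WT and 110 ± 10.7 CPM in C75S (edgeR adjusted p = 0.168), without overlap. In this list the libraries did not overlap for 1 gene as higher and 4 as lower in C75S, against 9.02% and 8.96% of all tested genes. *Gss*, which completes glutathione, was at 162 CPM in both genotypes.

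In the list of detoxification and export targets, 1 of 16 genes rose and 1 fell past the threshold, against 1.74% and 1.37% of all tested genes. *Gstm3*, a mu-class glutathione transferase, fell from 2166 ± 52.8 to 1781 ± 175 CPM (SD, n = 3 each), at -0.28 on the log2 scale (SE 0.06, edgeR adjusted p = 0.0111), with C75S libraries at 1597, 1946 and 1801 CPM, all below those of WT. *Gsta2*, an alpha-class transferase, rose from 21.2 ± 0.37 to 27.1 ± 3.31 CPM (0.35, SE 0.09, edgeR adjusted p = 0.0294), and all C75S libraries were above all WT libraries. Among all tested genes the libraries did not overlap for 8.96% as lower and 9.02% as higher in C75S. *Gstm3* and *Gsta2* both have close copies. The longest *Gsta2* transcript is 97.2% identical to *Gsta1* over its whole length. It is also 98.2% identical to *Gm10639* and 97.2% to *Gm3776*, each over 99.9%. *Gstm3* is 91.3% identical to *Gstm1* over 45.6% and 97.9% identical to the pseudogene *Gm8834* over 43.2%. The counts of *Gsta2* and *Gstm3* therefore rest on the reads that could be placed uniquely. *Gstm3* lost its call without C75S replicate 1 (edgeR adjusted p = 0.0585), WT replicate 1 (0.0553) or WT replicate 2 (0.0524), and *Gsta2* in the fits that left out C75S replicate 1 (0.173) or 2 (0.138) or WT replicate 1 (0.0529), 2 (0.115) or 3 (0.0936).

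**Figure D5:**
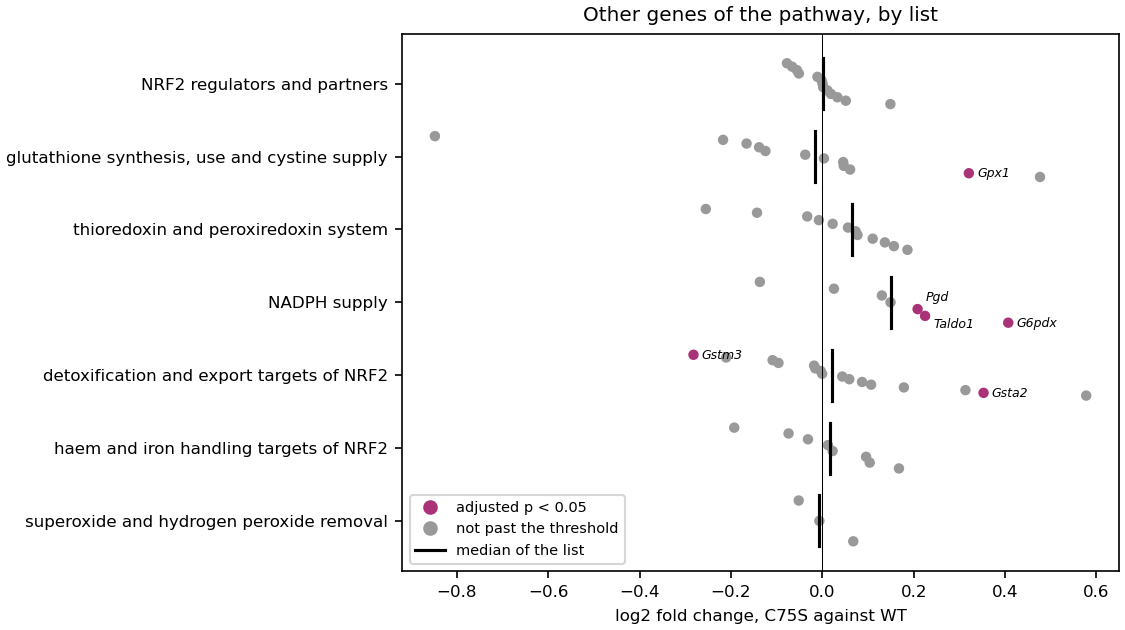
Log2 fold change of C75S against WT for the 71 tested genes of the 7 pathway lists, 1 point per gene, with a line at the median of each list and the names of the genes past an adjusted p-value of 0.05. The called genes are *Gpx1*, *G6pdx*, *Pgd*, *Taldo1* and *Gsta2* on the higher side and *Gstm3* on the lower side.

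The remaining 4 lists held no gene past the threshold. Among 13 regulators and partners of NRF2, which include the small MAF genes, the repressor *Bach1* and the KEAP1-binding autophagy receptor *Sqstm1*, the estimates ran from -0.08 to 0.15 and 1 gene had an unadjusted p-value under 0.05, where 13.4% of all tested genes did. *Mafk*, a small MAF partner, was at 61.3 ± 4.46 CPM in WT and 68.0 ± 2.67 CPM in C75S (edgeR adjusted p = 0.252), and *Bach1* at 39.2 ± 2.45 and 37.2 ± 0.14 CPM (edgeR adjusted p = 0.696). Among 12 genes of the thioredoxin and peroxiredoxin system the median was 0.06 and 5 reached an unadjusted p-value under 0.05, against the same 13.4%. These went both ways. *Msrb1*, *Txn2* and *Prdx3* were higher in C75S, and *Txnip* (log2 fold change -0.26, edgeR adjusted p = 0.121) and *Prdx6* (-0.14, 0.316) were lower. *Msrb1*, a methionine sulfoxide reductase, was at 56.0 ± 0.15 CPM in WT and 63.7 ± 2.99 CPM in C75S (edgeR adjusted p = 0.0918), and *Txn2*, mitochondrial thioredoxin, at 274 ± 13.4 and 305 ± 12.6 CPM (edgeR adjusted p = 0.112, and 0.0469 without WT replicate 1).

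The list of 8 genes of haem and iron handling had a median of 0.02. *Slc40a1*, the iron exporter ferroportin, was at 110 ± 5.02 CPM in WT and 96.4 ± 8.09 CPM in C75S (log2 fold change -0.19, edgeR adjusted p = 0.0843), and *Ftl1*, the ferritin light chain, at 504 ± 28.7 and 566 ± 4.85 CPM (0.17, edgeR adjusted p = 0.0894). Neither passed, although the libraries of the genotypes did not overlap for either gene, as in 18.0% of all tested genes. *Slc40a1* passed without C75S replicate 1 (edgeR adjusted p = 0.0294) and with no filter beyond 1 count (0.0239). *Ftl1* passed in DESeq2 (adjusted p = 0.0429), and its estimate was 0.01 with unstranded counts. *Hmox2*, the constitutive haem oxygenase, was at 73.9 ± 1.57 CPM in WT and 70.2 ± 3.38 CPM in C75S (log2 fold change -0.07, edgeR adjusted p = 0.63). Of the enzymes that remove superoxide and hydrogen peroxide, *Sod1*, *Sod2* and *Cat* were tested, with estimates of -0.05, 0.07 and -0.01 and adjusted p-values of 0.7, 0.64 and 0.975 in edgeR, and *Sod3* did not pass the filter.

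The genes whose levels ran most closely with *Nfe2l2* over the 6 libraries, among 9387 genes at 5 CPM or more, were *Dop1a* (Pearson correlation of log2 CPM 0.997), *Arntl* (0.995) and *Phospho2* (0.990). For *Nqo1* they were *Rab5b* (0.993), *Ddb2* (0.984) and *Wdr41* (0.983). With 6 libraries and that many genes searched, values this high are a description of these libraries, which also share their genotype groups and depths.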

How the data were processed

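The deposited files hold raw read counts per Ensembl gene in the layout of the STAR aligner, 1 file per library, in 3 columns (unstranded and each strand). The submitters' processing notes name Trim Galore 0.6.6, STAR 2.7.9a, edgeR 3.36.0 and the builds mm10 and GRCm38, and the annotation release is not given in the sources used here. Per the labels' protocols, the kit was Illumina TruSeq RNA and the sequencer a HiSeq3000. The reverse-strand column was used, whose totals were 32.9 to 33.9 times those of the forward strand. The 4 summary rows entered neither library sizes nor tests. Multimapping reads, 17.98% to 18.54% of reads, were not counted to genes.

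Genes were filtered with filterByExpr (minimum count 10, minimum total 15), scaled by TMM and fitted in edgeR 4.0.16 under R 4.3.3. Genotype was tested with a robust two-sided quasi-likelihood F-test, with Benjamini-Hochberg adjustment over all 12741 genes and a threshold of 0.05. Each standard error was obtained as the estimate over the root of its F statistic. Replicates of a genotype differed by more than counting noise (chi-square per degree of freedom 4.05 to 8.99). Positions, exon lengths and overlaps are from GENCODE M21 (GRCm38), matched by identifier for 55227 of 55487 rows. Close copies were sought with BLAST 2.17.0 among transcripts (identity of at least 90% over at least 20% of the query). The fit was tested on simulated data.

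Members and lists were chosen with earlier results of these data known. Named were all 10 members, every pathway gene past the threshold and the 2 of each list with the smallest p-value. *Slc3a2*, *Me1*, *Gss*, *Hmox2*, *Tkt*, *Cat*, *Sod3*, *Nnt* and *Abcc4* fall outside that rule and were named with their values known. The same holds for *Sqstm1*, *Txnip*, *Prdx3*, *Prdx6*, *Gsta1* and *Gstm1*. Alternatives were DESeq2 1.42.0, limma-voom (limma 3.58.1), scaling by RLE, by upper quartiles or by library size, no filter beyond 1 count, unstranded counts, a replicate block and leaving out each library.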

Additional observations from a re-analysis of the deposited data

How the results depend on the processing

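The number of the 10 genes past the threshold was 1 in the fits with RLE, upper-quartile or library-size scaling, DESeq2, limma-voom and unstranded counts. It was 2 with no filter beyond 1 count, where *Slc7a11* joined *Hmox1*, and 1 to 2 when a library was left out. Over all genes the count was 396, and 201 to 355 when a library was left out, and it was 573 with no filter, 290 higher and 283 lower against 222 and 174. The count of pathway genes was 6, and 2 to 6 when a library was left out. It was 7 in DESeq2, 8 with no filter beyond 1 count and 5 with unstranded counts. Some fits called other pathway genes than these 6. Without C75S replicate 1, 1 of the 2 called was among the 6. This was 2 of 3 without WT replicate 1 and 5 of 6 without C75S replicate 3. The sign of *Txnrd1* turned with library-size scaling (0.0034) and when a library was left out, over which it ranged from -0.065 to 0.037. *Nqo1* ranged from -0.169 to 0.074 over those fits, and the median of the 10 genes from -0.057 to -0.0018. The causes were not tested. Library-size scaling moved the median of all genes to 0.009. Replicate numbers are shared between genotypes in the labels. Over all tested genes, the deviations of same-numbered libraries from their group means had correlations of 0.02, -0.04 and 0.03. With 3 libraries per genotype, these values cannot tell whether same-numbered libraries were paired. With the replicate block 480 of all genes, 1 of the 10 genes and 6 pathway genes were called. *Nqo1* had the lowest counts of the 10 genes, 119 to 182 per library, and what limits its precision was not tested.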

Other observations

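*Nnt*, the mitochondrial transhydrogenase that makes NADPH, was at 0.63 ± 0.51 CPM in WT and 0.70 ± 0.25 CPM in C75S (SD, n = 3 each), far below the other 6 genes of NADPH supply, of which the lowest was *G6pdx* at 15.2 CPM in WT. *Keap1* had the largest share of reads on the opposite strand among the 10 genes, 1.92% against at most 0.0848% in the others, and its exons share 510 bases with the antisense gene *Gm16754*. *Abcc4*, an exporter of organic anions, had the largest positive estimate in the detoxification list without passing the threshold, at 6.88 ± 1.36 CPM in WT and 10.3 ± 2.58 CPM in C75S with overlapping libraries (log2 fold change 0.58, edgeR adjusted p = 0.0942).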
